A study of Mus musculus with 24 samples.

Results

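Collagen genes were followed through the onset of experimental autoimmune myocarditis (EAM), in which mice immunized with a heart muscle antigen develop an inflamed heart. The genes are the protein-coding ones with a symbol made of Col, a number, a and a number that had at least 10 reads in at least 4 of the 24 hearts, and 38 of the 44 such genes among 41388 genes in the count table met this rule. They comprise 10 of 11 fibrillar collagens, 5 of 6 chains of the basement membrane collagen type IV, and 23 of 27 others. Col2a1, Col4a6, Col6a4, Col9a1, Col10a1 and Col19a1 did not meet it. Of these Col6a4 came nearest, with 10 reads in 1 heart, while the members with the fewest such hearts were Col9a2 with 5 and Col17a1 with 6. RNA was sequenced from part of the heart of wild type male Balb/c mice (BALB/cAnNCrl), 4 with EAM and 4 controls at each of 10, 15 and 21 days (D10, D15 and D21) after the first immunization, which was given at 8 to 10 weeks of age. EAM mice had SCFA emulsified with 100 µg of a cardiac myosin heavy chain peptide on day 0 and day 7, with pertussis toxin (PTX) on day 0. SCFA is a complete Freund's adjuvant with added mycobacteria. Control mice had the same SCFA, with PBS in place of the peptide, and the same PTX, so the adjuvant and the toxin are shared by all groups.

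Collagens are secreted proteins built as a triple helix of chains, each chain from its own gene. Fibrillar collagens (types I, III, V, XI, XXIV and XXVII) assemble into the banded fibres that carry load in the interstitium of the heart and that make up a scar, and cardiac fibroblasts are their main source in this tissue. Type IV collagen forms the sheet-like network of the basement membrane around cardiomyocytes, capillaries and smooth muscle. The remaining types include the beaded filaments of type VI, the FACIT collagens that sit on the surface of fibrils, the multiplexins of the basement membrane zone, the short-chain network collagen type VIII and collagens that span the cell membrane.

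Libraries held 15814863 to 24980864 reads assigned to genes. The 6 cardiomyocyte markers had reads in every group, with a summed level of 6739.8 to 17322 CPM (counts scaled to library size) in D15 EAM hearts and 24617 to 29054 CPM in their controls. The samples for RNA were chosen by the study as far as possible to show inflammation, so the EAM groups are not a random draw of immunized mice. D10 EAM replicate 1 stood apart, with a summed level of 2333 CPM over 6 leucocyte markers against 331 to 1091 CPM in the other 7 D10 hearts, and the main D10 results are given also without it. The 4 D21 EAM libraries carry another library code than the other 20, so library code and EAM cannot be told apart at D21. Replicates are the 4 samples numbered in each group, and p-values measure the spread between these samples. In RNA from whole tissue, more cells of a type and more RNA per cell cannot be told apart.

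In control hearts the order of the collagens by level was led by the basement membrane. Levels between genes are compared per length, as RPKM, the CPM per kilobase of exon, with the mean ± SD over the 12 control hearts. Col4a1 and Col4a2, the chains of the widespread type IV network, stood at 122 ± 21.2 and 91.2 ± 15.0 RPKM. Col3a1, which makes type III collagen, followed at 75.5 ± 24.6 RPKM, Col1a1 and Col1a2 of type I at 34.8 ± 8.37 and 23.7 ± 5.04 RPKM, and Col6a1, Col15a1 and Col6a2 at 30.9 ± 6.18, 28.8 ± 8.55 and 18.7 ± 3.78 RPKM. In this order the mean ± SD of each of these genes overlapped with that of its neighbour, except between Col3a1 and Col1a1. Further down, Col5a1, Col4a5 and Col5a2 lay at 10.7, 10.4 and 8.15 RPKM, while the last of the 38 were Col11a1 at 0.044 ± 0.018 and Col24a1 at 0.0102 ± 0.00674 RPKM. In D15 EAM hearts this order was another one. Col1a1 and Col3a1 led with a mean of 602 and 591 RPKM, Col1a2 was at 245 RPKM, and Col4a1 and Col4a2 came after them at 166 and 115 RPKM.

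The shift is seen in the reads of each heart. All 38 genes together took 0.259% to 0.414% of the library in D15 control hearts and 1.95%, 2.43%, 1.05% and 2.30% in the D15 EAM hearts. Of those reads, fibrillar genes held 36.6% ± 0.977 in control and 80.5% ± 3.64 in EAM hearts at D15 (SD, n = 4 each), and type IV genes 43.4% ± 1.52 and 12.6% ± 3.15. Counted per kilobase of exon, the fibrillar share was 30.2% and 76.6%. At D21 the fibrillar share of collagen reads was 37.0% ± 1.92 in control hearts and ranged from 61.1% to 82.3% in EAM hearts. The groups did not overlap on either day. At D10 they did, with 33.8% to 51.2% in control hearts and 42.7% to 65.5% in EAM hearts, the highest of them in D10 EAM replicate 1 and the next at 53.4%.

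**Figure D1:**
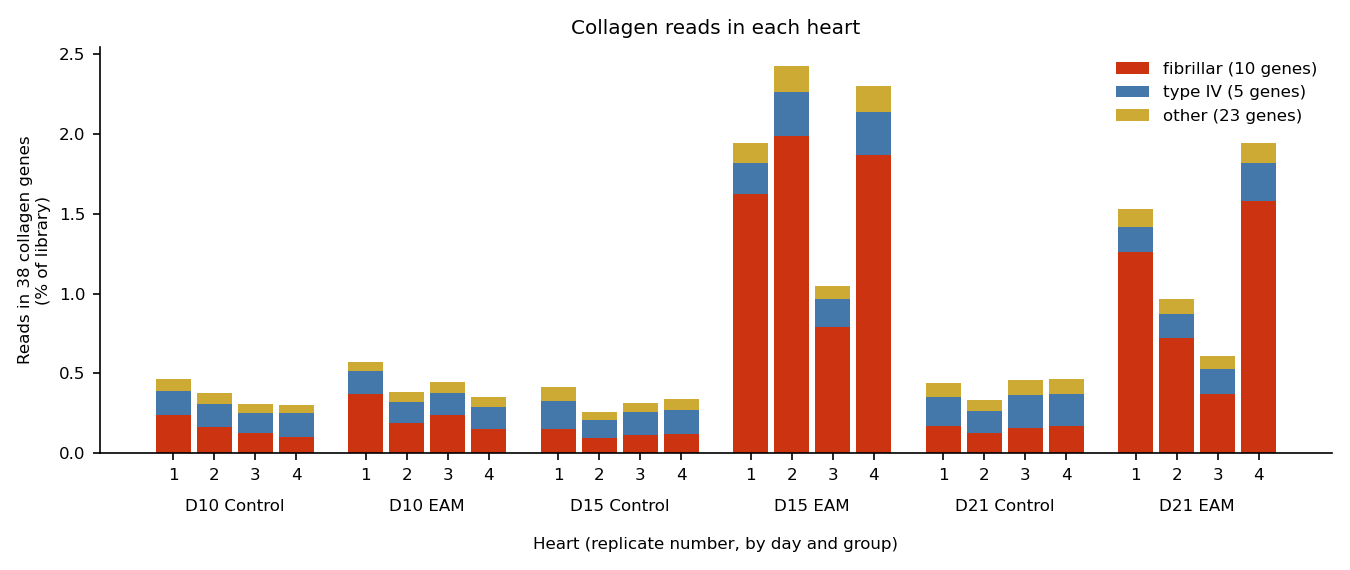
Reads in the 38 collagen genes as a percentage of the library, 1 bar for each of the 24 hearts, stacked by fibrillar, type IV and other collagens, with replicate numbers under the bars. The D15 EAM bars lie between 1.05% and 2.43%, D15 EAM replicate 3 the lowest of them, and the D21 EAM bars between 0.608% and 1.95%, all mostly fibrillar, against at most 0.468% in every control heart.

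At D15, 35 of the 38 genes passed the filter on low counts and were tested, and 16 rose and 3 fell in EAM hearts by edgeR's quasi-likelihood test (false discovery rate, FDR, under 0.01 and a change of 2-fold or more). Across all 15693 genes, 18.1% were called higher and 12.9% lower. Of the fibrillar genes 8 of 10 rose and 1 fell, of type IV 0 of 5 rose and 2 fell, and of the others 8 of 20 rose and 0 fell. Median log2 fold changes were 3.17 over fibrillar, 0.04 over type IV and 0.52 over the other genes tested, beside 0.02 over all genes. Col24a1 and Col9a3 passed the filter only through the EAM hearts, since no D15 control heart had 10 reads in either, so they had to differ. Without these 2 genes 7 of 9 fibrillar and 7 of 19 other genes rose, with medians of 3.04 and 0.48. Col9a2, Col17a1 and Col25a1 were not tested at D15. In a fit of all 24 hearts, in which all 38 genes were tested, 17 rose and 4 fell at D15, with Col7a1 and Col13a1 added. The shares of all genes above are those of the fit within D15, not of that one.

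**Figure D2:**
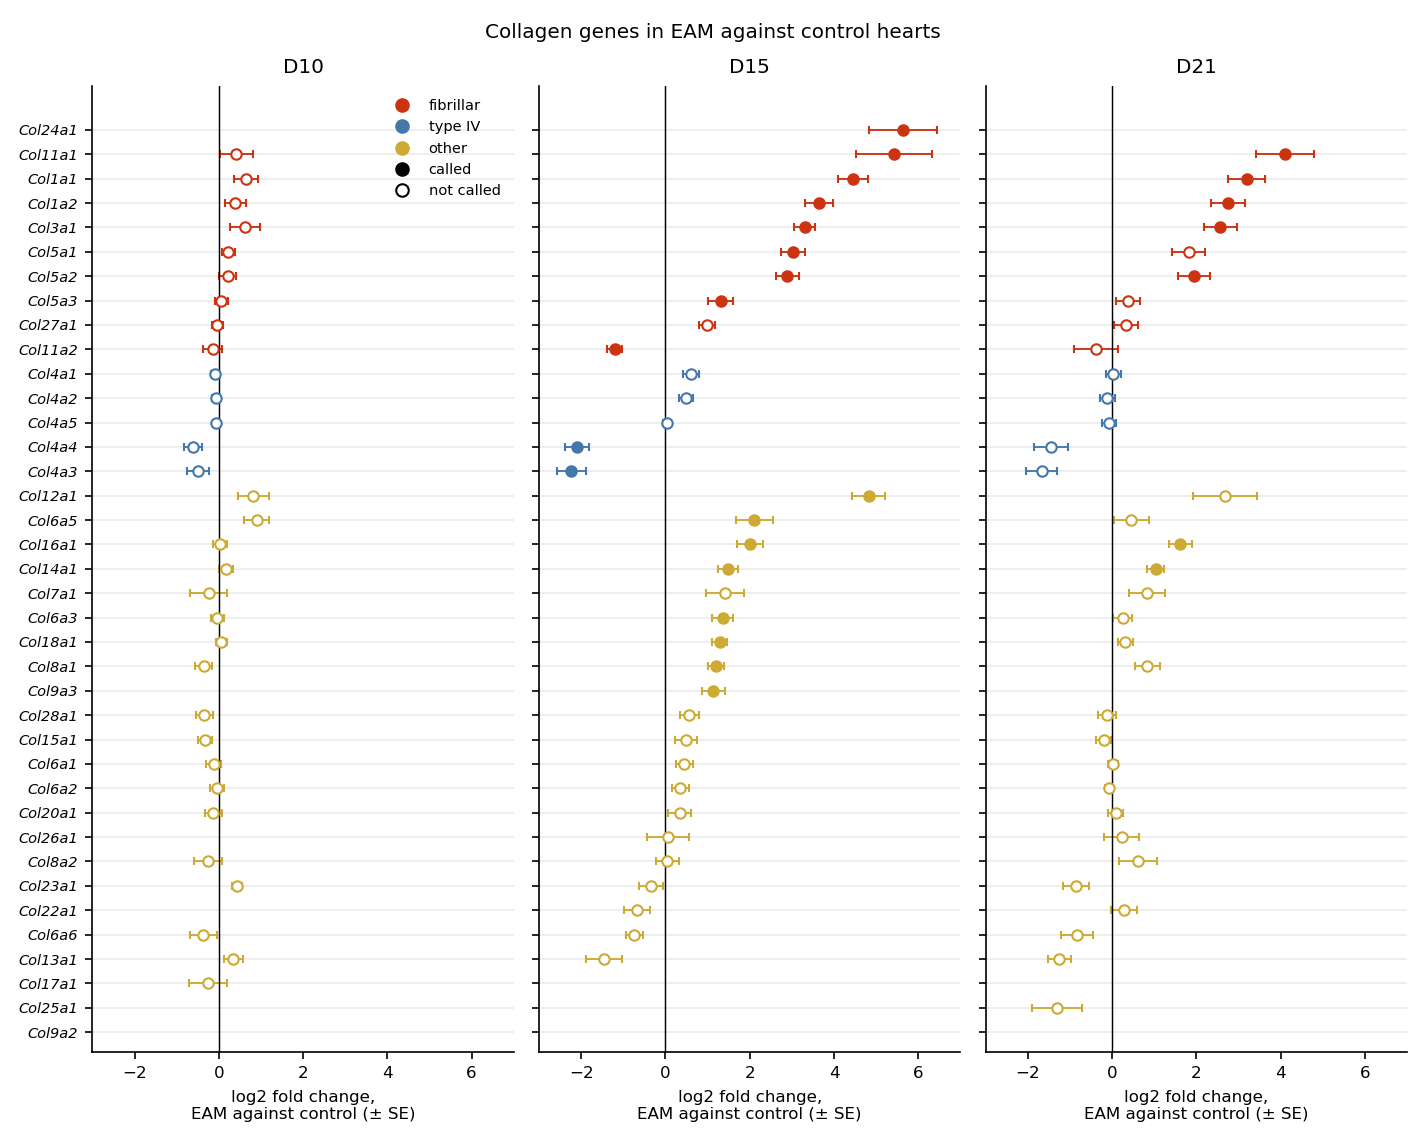
Log2 fold change of EAM against control hearts with its standard error for each collagen gene at D10, D15 and D21, grouped into fibrillar, type IV and other genes, with filled circles for called genes and no circle where a gene was not tested on that day. At D15 most fibrillar genes lie far to the right, while Col4a1 and Col4a2 lie a little to the right of 0 with open circles, Col4a5 at 0 and Col4a3 and Col4a4 to the left, and at D10 no circle is filled.

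Type I and type III collagen, the bulk of cardiac interstitial fibres, rose the most in absolute terms. Col1a1 (ENSMUSG00000001506, chromosome 11 from 94936224 to 94953042) was at 3956, 5243, 1686 and 4920 CPM in D15 EAM replicates 1 to 4 and at 216, 145, 189 and 194 CPM in the controls. Its log2 fold change was 4.45 (SE 0.36, adjusted p = 5.6e-06). Every EAM heart was far above every control, EAM replicate 3 least so. Col1a2 (ENSMUSG00000029661, chromosome 6 from 4504814 to 4541544), the partner chain of type I, was at 3152, 4071, 1374 and 3574 CPM in the EAM hearts and 290.2, 202, 255 and 257 CPM in the controls, giving a log2 fold change of 3.64 (SE 0.33, adjusted p = 9.9e-06). Col3a1 (ENSMUSG00000026043, chromosome 1 from 45311538 to 45349706) was at 6311, 6412, 3709 and 6772 CPM in the EAM hearts and 787, 497, 533 and 599 CPM in the controls, giving a log2 fold change of 3.30 (SE 0.25, adjusted p = 3.4e-06). The groups did not overlap for any of these chains, nor for 70.5% of all genes tested at D15, and EAM replicate 3 was the lowest EAM heart for each. Of the D15 EAM hearts it also had the lowest summed leucocyte markers (2517 CPM) and the highest summed cardiomyocyte markers (17322 CPM).

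The bases before the RefSeq starts of fibrillar genes that rose together are shown for Col1a2, Col3a1 and Col11a1, as examples with different short motifs. Of the 38 genes, 30 had a window in the RefSeq table (GRCm38.p6), and each was searched over the 250 bases before its start for the CCAAT box, the TATA box (spelled TATAAA) and the GC box (spelled GGGCGG), on both strands. Capitals mark a CCAAT or a TATA box, or the complement of one, such as ATTGG. The windows are chr6:4505368-4505617 for Col1a2, chr1:45311288-45311537 for Col3a1 and chr3:114030290-114030539 for Col11a1, all on the plus strand and written 5′ to 3′.
Col1a2: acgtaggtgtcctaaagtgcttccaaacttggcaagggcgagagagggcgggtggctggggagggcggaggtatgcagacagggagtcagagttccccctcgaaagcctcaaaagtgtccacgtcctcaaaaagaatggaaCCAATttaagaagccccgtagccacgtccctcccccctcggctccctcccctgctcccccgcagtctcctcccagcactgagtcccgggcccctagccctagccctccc
Col3a1: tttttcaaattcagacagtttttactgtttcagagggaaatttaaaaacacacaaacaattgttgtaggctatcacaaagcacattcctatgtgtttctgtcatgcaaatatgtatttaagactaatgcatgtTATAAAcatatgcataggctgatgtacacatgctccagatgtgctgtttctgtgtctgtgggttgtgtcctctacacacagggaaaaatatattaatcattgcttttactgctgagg
Col11a1: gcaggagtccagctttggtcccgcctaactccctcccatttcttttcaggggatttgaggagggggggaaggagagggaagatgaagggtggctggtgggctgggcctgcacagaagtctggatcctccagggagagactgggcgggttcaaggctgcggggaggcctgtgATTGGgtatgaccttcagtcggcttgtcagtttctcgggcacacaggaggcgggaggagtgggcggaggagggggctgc

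The Col1a2 window holds CCAAT with its first base 109 bases before the start, the Col11a1 window its complement 79 bases before the start, and the Col3a1 window TATAAA 117 bases before the start. CCAAT was present in 3 of 8 fibrillar, 3 of 4 type IV and 5 of 18 other windows, beside 33.8% of all 32851 windows in the table. TATAAA was present in 2 of 8, 0 of 4 and 2 of 18, beside 12.4% of all windows, and GGGCGG in 6 of 8, 2 of 4 and 11 of 18, beside 32.7%. None of these motifs was in the windows of all the fibrillar genes that rose, and that of Col24a1 held none of them. GGGCGG is not in capitals. The starts of Col4a1 and Col4a2 lie on opposite strands of chromosome 8, 21 bases apart, at 11312826 and 11312805, and a directional library kit was used, but the sources used here do not say whether strand was used in counting.

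The minor fibrillar chains split. Type V collagen, which starts and limits the fibrils of type I, was higher in all of its chains. Col5a1 rose with a log2 fold change of 3.04 (adjusted p = 1.3e-05), Col5a2 with 2.89 (adjusted p = 1.3e-05) and Col5a3 with 1.31 (adjusted p = 0.00308). Col5a2 (ENSMUSG00000026042, chromosome 1 from 45374321 to 45503282) was at 499, 685, 268 and 563 CPM in the EAM hearts and 86.0, 56.8, 69.1 and 68.2 CPM in the controls, without overlap. The call of Col5a3 at D15 did not pass without D15 control replicate 2 or 3 (adjusted p = 0.0102 and 0.0119 by edgeR). Col27a1, at 0.98, had an FDR under 0.01 (adjusted p = 0.00107) but stayed below a 2-fold change, which it reached with some hearts left out.

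Genes known from the fibrils of cartilage and bone went both ways. Col11a1 (ENSMUSG00000027966, chromosome 3 from 114030540 to 114220718), nearly absent from control hearts, was at 12.7, 43.2, 2.66 and 16.2 CPM in the EAM hearts and 0.573, 0.236, 0.621 and 0.294 CPM in the controls, giving a log2 fold change of 5.43 (SE 0.90, adjusted p = 4.3e-04). EAM replicate 2 was the highest and replicate 3 the lowest, and limma-voom did not call Col11a1 at D15 (adjusted p = 0.0369). Col24a1 (ENSMUSG00000028197, chromosome 3 from 145292472 to 145552011) had 81, 119, 15 and 92 reads in the EAM hearts and 1, 1, 2 and 0 reads in the controls. Its fitted log2 fold change of 5.64 (SE 0.81, adjusted p = 1.8e-04) depends on the few control reads and is not a precise ratio. Col11a2 (ENSMUSG00000024330, chromosome 17 from 34039437 to 34066685), another type XI chain, fell instead. It was at 1.91, 1.93, 2.11 and 2.82 CPM in the EAM hearts and 4.48, 4.60, 6.42 and 5.30 CPM in the controls, giving a log2 fold change of -1.21 (SE 0.18, adjusted p = 2.3e-04). Of the cartilage and valve markers, 2 of the 5 tested were also called lower at D15 and 0 higher, and their summed level was 16.5 to 31.1 CPM in the EAM hearts and 24.6 to 29.4 CPM in the controls. The part of this tissue in the collagen values was not tested.

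**Figure D3:**
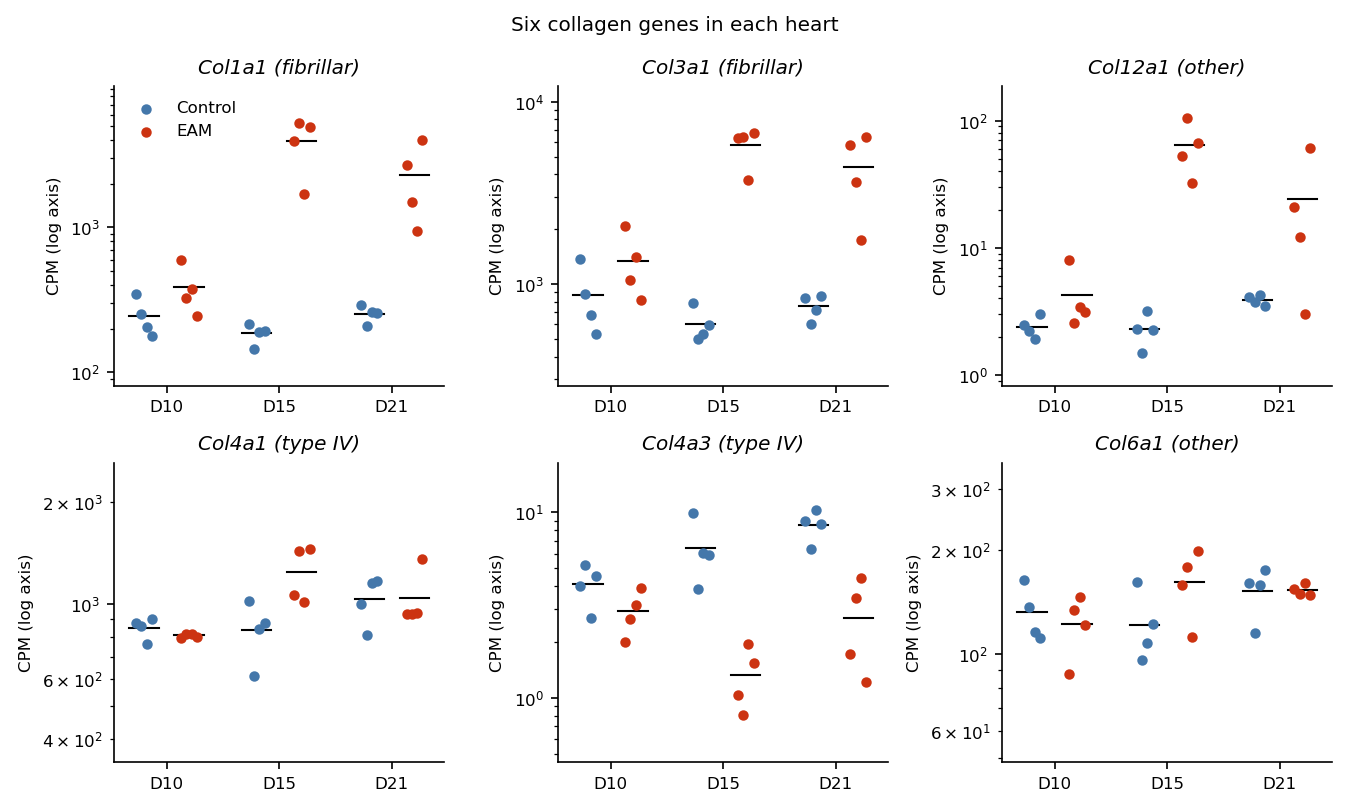
CPM of Col1a1, Col3a1, Col12a1, Col4a1, Col4a3 and Col6a1 in each heart on log axes, control hearts in blue and EAM hearts in red, with horizontal lines at the mean of each group of 4. Col1a1, Col3a1 and Col12a1 are higher in every D15 EAM heart than in every D15 control heart, Col4a3 is lower in every one, and Col4a1 and Col6a1 overlap between the groups.

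Among the basement membrane chains the abundant ones were not called at D15 and the rare ones fell. Col4a1 (ENSMUSG00000031502, chromosome 8 from 11198423 to 11312826) was at 1062, 1436, 1015 and 1449 CPM in the EAM hearts and 1021, 614, 842 and 881 CPM in the controls, giving a log2 fold change of 0.60 (SE 0.18, adjusted p = 0.0147). Col4a2 (ENSMUSG00000031503, chromosome 8 from 11312805 to 11449287) was at 633, 890.1, 621 and 897 CPM in the EAM hearts and 651, 428, 552 and 596 CPM in the controls, with 0.49 (SE 0.17, adjusted p = 0.0285). For both the groups overlapped, since control replicate 1 lay above the lowest EAM heart. Col4a5 (ENSMUSG00000031274, chromosome X from 141475385 to 141689234) was at 60.3, 72.3, 56.0 and 69.7 CPM in the EAM hearts and 69.1, 58.0, 66.9 and 64.6 CPM in the controls, with 0.04 (SE 0.10, adjusted p = 0.739). Col4a3 and Col4a4 encode chains that join Col4a5 in a second kind of type IV network, best known from the kidney glomerulus. Col4a3 (ENSMUSG00000079465, chromosome 1 from 82586921 to 82722059) fell to 1.04, 0.806, 1.94 and 1.54 CPM in EAM from 9.90, 3.84, 6.06 and 5.89 CPM in the controls, giving a log2 fold change of -2.24 (SE 0.34, adjusted p = 2.6e-04). Col4a4 (ENSMUSG00000067158, chromosome 1 from 82448423 to 82586849) was at 3.45, 1.51, 4.30 and 3.59 CPM in the EAM hearts and 18.6, 11.5, 13.2 and 12.8 CPM in the controls, with -2.10 (SE 0.29, adjusted p = 1.3e-04). Neither overlapped between the groups. Over the same hearts, 3 of 6 cardiomyocyte markers, 3 of 6 pericyte and smooth muscle markers and 1 of 6 endothelial markers were called lower and 0 of these higher. The summed level of the pericyte and smooth muscle markers was 447 to 892 CPM in the EAM hearts and 1453 to 1806 CPM in the controls, that of the endothelial markers 700.3 to 766 and 1009 to 1326 CPM. Their part in the type IV values was not tested.

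Of the collagens that decorate fibrils (FACIT), 4 of the 6 tested at D15 rose, or 3 of 5 without Col9a3, which passed the filter only through the EAM hearts. Col12a1 (ENSMUSG00000032332, chromosome 9 from 79598991 to 79718831), which links fibrils to their surroundings in tissue under strain, was at 52.7, 104, 32.5 and 66.5 CPM in the EAM hearts and 2.29, 1.48, 3.21 and 2.24 CPM in the controls, giving a log2 fold change of 4.82 (SE 0.40, adjusted p = 6.0e-06). Col16a1 (ENSMUSG00000040690, chromosome 4 from 130047840 to 130099283) was at 62.7, 87.6, 28.8 and 81.5 CPM in the EAM hearts and 18.3, 13.9, 18.0 and 16.9 CPM in the controls, with 2.0 (SE 0.31, adjusted p = 2.7e-04). Col14a1 (ENSMUSG00000022371, chromosome 15 from 55307750 to 55520803), a regulator of fibril diameter, was at 119.8, 106, 62.4 and 159 CPM in the EAM hearts and 47.0, 37.0, 42.7 and 37.5 CPM in the controls, with 1.49 (SE 0.24, adjusted p = 4.1e-04). None of these groups overlapped, and EAM replicate 3 was again the lowest EAM heart for each. Col9a3, the fourth, had 18, 20, 19 and 25 reads in EAM and 4, 6, 9 and 8 reads in control hearts, and its call at a log2 fold change of 1.13 (adjusted p = 0.00426) did not pass without D15 control replicate 1 or 2, or with no filter on low counts. Col20a1 and Col22a1 were not called, with log2 fold changes of 0.34 (adjusted p = 0.284) and -0.67 (adjusted p = 0.0723).

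Type VI collagen, the beaded filament next to basement membranes, moved unevenly across its chains. Col6a1 (ENSMUSG00000001119, chromosome 10 from 76708792 to 76726168) was at 158, 179, 112 and 198 CPM in D15 EAM and 161, 96.0, 108 and 122 CPM in the controls, and Col6a2 (ENSMUSG00000020241, chromosome 10 from 76595762 to 76623630) at 173, 197, 123 and 217 and 185, 109.7, 127 and 151 CPM. Neither was called, with log2 fold changes of 0.45 (adjusted p = 0.0682) and 0.35 (adjusted p = 0.144), and the groups overlapped. Col6a3 (ENSMUSG00000048126, chromosome 1 from 90765923 to 90843971), whose chain combines with these, was at 115, 152, 88.3 and 174 CPM in the EAM hearts and 69.3, 37.7, 44.8 and 60.0 CPM in the controls and rose by 1.36 (SE 0.25, adjusted p = 7.4e-04) on the log2 scale. Col6a5 (ENSMUSG00000091345, chromosome 9 from 105856078 to 105960643) was at 3.99, 9.25, 2.74 and 9.41 CPM in the EAM hearts and 1.82, 1.53, 1.71 and 0.942 CPM in the controls and rose by 2.11 (SE 0.43, adjusted p = 0.00159), and limma-voom did not call it (log2 fold change 1.97, adjusted p = 0.0107). Its neighbour on chromosome 9, Col6a6, had a log2 fold change of -0.74 (adjusted p = 0.00738), short of a 2-fold change, with 7.50 to 14.4 CPM in the EAM hearts and 14.6 to 20.0 CPM in the controls.

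Among the remaining types, Col18a1, a basement membrane multiplexin whose end fragment is endostatin, rose with a log2 fold change of 1.29 (adjusted p = 1.5e-04) and Col8a1, a short-chain collagen of vessel walls, with 1.20 (adjusted p = 3.6e-04). Col15a1 (ENSMUSG00000028339, chromosome 4 from 47208161 to 47313167), the other multiplexin and the sixth collagen by level in control hearts, was at 218, 294, 125 and 283 CPM in the EAM hearts and 222, 133, 145 and 179 CPM in the controls and was not called (log2 fold change 0.48, adjusted p = 0.126). Col13a1, which spans the cell membrane, had a log2 fold change of -1.46 (adjusted p = 0.0105) and was not called here, though it was in the fit of all 24 hearts (adjusted p = 6.2e-04). Col7a1 of the anchoring fibrils, at 1.41 (adjusted p = 0.0188), and Col8a2, Col23a1, Col26a1 and Col28a1, between -0.34 and 0.56, were not called either.

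Cell markers that stood beside these values at D15 were those of leucocytes, with 5 of 6 called higher and a summed level of 2517 to 3743 CPM in EAM against 322 to 358 CPM in the controls, and those of activated fibroblasts, with 4 of 6 called higher and 1 lower. The summed level of the activated fibroblast markers overlapped, at 521 to 986 CPM in the EAM hearts and 609 to 878 CPM in the controls. Tnc and Cthrc1, matrix proteins of healing tissue, had log2 fold changes of 6.78 (adjusted p = 3.9e-08) and 6.14 (adjusted p = 2.4e-05) and Postn 1.68 (adjusted p = 0.00227), while Acta2, the actin of smooth muscle and myofibroblasts, was at -1.51 (adjusted p = 1.2e-05). Of 6 general fibroblast markers 0 were called higher and 1 lower, with a median log2 fold change of -0.03 and a summed level of 1714 to 2812 CPM in the EAM hearts and 2916 to 3452 CPM in the controls. In that sum Gsn had a mean of 714 CPM in the EAM hearts and 1861 CPM in the controls. Pdgfra, Dcn and Lum had higher means in the EAM hearts, and Tcf21 and Dpt lower ones. Adipocyte markers had a summed level of 174 to 278 CPM in the EAM hearts and 415 to 510.2 CPM in the controls, with 1 of 5 called lower. That sum was mostly Fabp4, with a mean of 216 CPM in the EAM hearts and 444 CPM in the controls. The median log2 fold change of the adipocyte list was 0.168. The part of any of these cells in the collagen values was not tested.

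Chains of 1 protein did not rise by the same amount. The ratio of reads was taken as a log2 difference within each heart, so that library size drops out, and tested by an exact permutation test (two-sided, 4 against 4 hearts, smallest possible p 0.0286) with Benjamini-Hochberg adjustment over 12 tests. Type I collagen is usually made of chains from Col1a1 and Col1a2 in a fixed proportion. The log2 ratio Col1a1/Col1a2 at D15 was 0.33, 0.37, 0.29 and 0.46 in the EAM hearts and -0.43, -0.48, -0.43 and -0.41 in the controls. It averaged 0.36 ± 0.07 in EAM and -0.44 ± 0.03 in control hearts (SD, n = 4 each), a difference of 0.80 (adjusted p = 0.0429 by the exact permutation test). The groups did not overlap at D10 or D21 either, where the difference was 0.23 and 0.43 (adjusted p = 0.0429 each by the exact permutation test). At D10 the log2 ratio was -0.02, -0.13, -0.11 and -0.25 in EAM and -0.33, -0.33, -0.39 and -0.39 in control hearts, so this measure separated the D10 groups, while no collagen was called. The rules are unlike, since ratios needed an adjusted p under 0.05 with no fold limit. A difference of 0.23 could not be called under the 2-fold rule for genes. Without D10 EAM replicate 1 the difference was 0.195 (adjusted p = 0.0429, exact permutation test of 3 against 4 hearts). The call ended without any 1 of the 4 D10 control hearts, with adjusted p between 0.0686 and 0.0762 by the exact permutation test. Over single hearts left out the difference stayed between 0.195 and 0.271. With so few hearts the p of this test moves in large steps, here and for the ratios below.

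The ratio Col1a1/Col3a1, which sets type I against type III, was -0.64 ± 0.37 in EAM and -1.69 ± 0.16 in control hearts (SD, n = 4 each), a difference of 1.05 at D15, and differed by 0.58 at D21 (adjusted p = 0.0429 for each by the exact permutation test). Neither day passed without any 1 of its 4 control hearts (adjusted p up to 0.0686 at D15 and 0.0762 at D21, exact permutation test). At D10 it differed by -0.0155 (adjusted p = 0.914, exact permutation test). The type IV pair Col4a1/Col4a2 differed by little. It was 0.71 ± 0.03 in EAM and 0.59 ± 0.05 in control hearts (SD, n = 4 each), a difference of 0.12 at D15 (adjusted p = 0.0429, exact permutation test), which did not pass without any 1 of the D15 EAM hearts (adjusted p = 0.0686, exact permutation test). The differences of -0.0216 at D10 and 0.15 at D21 did not pass (adjusted p = 0.499 and 0.0686, exact permutation test). Set against the basement membrane, Col1a1/Col4a1 was 1.57 ± 0.56 in EAM and -2.17 ± 0.07 in control hearts (SD, n = 4 each), a difference of 3.73 at D15, with a difference of 2.97 at D21 (adjusted p = 0.0429 for each by the exact permutation test). In every D15 and D21 EAM heart Col1a1 had more reads than Col4a1, and in every control heart fewer. The D10 difference of 0.69 did not pass (adjusted p = 0.0686, exact permutation test), and it was 0.45 without D10 EAM replicate 1.

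**Figure D4:**
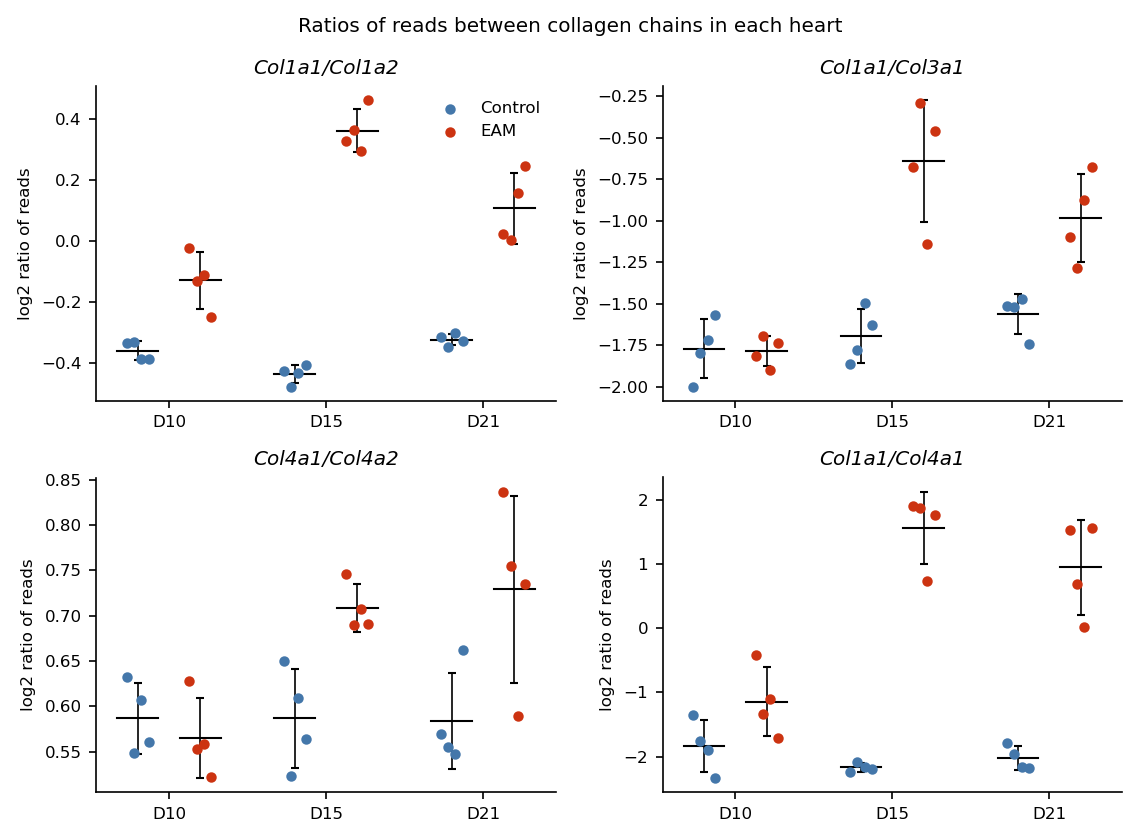
Log2 ratio of reads between pairs of collagen genes in each heart, control hearts in blue and EAM hearts in red, with horizontal lines at the group mean and bars of 1 SD (n = 4). Col1a1/Col1a2 is higher in every EAM heart than in every control heart of the same day, Col1a1/Col3a1 and Col1a1/Col4a1 at D15 and D21, and Col4a1/Col4a2 at D15 only.

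At D10, 32 of the 38 genes were tested and 0 were called, as was 0% of the 15029 genes tested. With the edgeR test 2 collagens were higher and 1 lower at an unadjusted p under 0.05, where 9.71% of all genes were higher and 5.54% lower, and 3 were higher (Col6a5, Col14a1 and Col23a1) and 2 lower (Col4a4 and Col8a1) without D10 EAM replicate 1, where 6.12% and 4.96% of all genes were. DESeq2, the edgeR likelihood ratio test and limma-voom called 0 as well. Median log2 fold changes were 0.23 over the 9 fibrillar, -0.09 over the 5 type IV and -0.08 over the 18 other genes tested, and 0.13, -0.08 and 0.01 without D10 EAM replicate 1. Col1a1 was at 593, 325, 379 and 245 CPM in the EAM hearts and 345, 254, 204 and 179 CPM in the controls, giving a log2 fold change of 0.64 (SE 0.29, adjusted p = 0.331). Replicate 1, the heart with high leucocyte markers, was the highest, and without it the log2 fold change was 0.35. Col3a1 was at 2082, 1050, 1414 and 813 CPM in the EAM hearts and 1377, 881, 672 and 529.9 CPM in the controls, with 0.62 (SE 0.35, adjusted p = 0.381). Without EAM replicate 1 the log2 fold change of Col3a1 was 0.33, and the groups overlapped with or without it. Col12a1 was at 7.95, 2.55, 3.40 and 3.11 CPM in the EAM hearts and 2.45, 2.20, 1.91 and 3.04 CPM in the controls (log2 fold change 0.82, adjusted p = 0.33), and without EAM replicate 1 its log2 fold change was 0.33. Col23a1, a membrane-spanning collagen, was the 1 of 32 members tested whose D10 groups did not overlap, as was so for 8.16% of all genes tested, at 6.85 to 7.99 CPM in the EAM hearts and 5.08 to 5.39 CPM in the controls, and it was not called (log2 fold change 0.43, adjusted p = 0.328). Mesothelium markers had a summed level in D10 EAM hearts of 22.6 to 56.6 CPM against 8.90 to 13.6 CPM in D10 control hearts (EAM replicate 1 being the highest and the other 3 EAM hearts at 22.6 to 26.3 CPM), with 0 of 6 called, and their part in the collagen values was not tested. Without D10 EAM replicate 1, 0 collagens were called as well.

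At D21, 34 genes were tested, and 7 rose and 0 fell, where 4.13% of the 15266 genes tested were called higher and 1.16% lower. The 7 were Col1a1, Col1a2, Col3a1, Col5a2 and Col11a1 of the fibrillar group and Col14a1 and Col16a1 of the FACIT collagens. All of them were also called higher at D15. Median log2 fold changes were 1.94 over the 9 fibrillar, -0.11 over the 5 type IV and 0.24 over the 20 other genes tested. With the same test 4 were lower at an unadjusted p under 0.05, where 21.2% of all genes were, DESeq2 and the edgeR likelihood ratio test called 3 lower (Col4a3, Col4a4 and Col13a1), and limma-voom 0. Col25a1 passed the filter only through the control hearts, and Col9a2, Col9a3, Col17a1 and Col24a1 were not tested. In the fit of all 24 hearts 10 rose and 3 fell at D21, while limma-voom called only Col1a1, Col1a2 and Col3a1 higher. The 10 include Col24a1, which passed the filter of that fit only through EAM hearts. The shares of all genes given for D21 are those of the quasi-likelihood test within the day.

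Col1a1 was at 2690.4, 1498, 951 and 3983 CPM in D21 EAM replicates 1 to 4 and 292, 209, 259 and 258 CPM in the controls, a log2 fold change of 3.20 (SE 0.44, adjusted p = 0.00477). Col1a2 was at 2651, 1495, 854 and 3356 and 364, 267, 319.7 and 323 CPM (log2 fold change 2.75, SE 0.41, adjusted p = 0.00562), and Col3a1 at 5767, 3647, 1744 and 6363 and 834, 601, 719 and 861 CPM (log2 fold change 2.57, SE 0.40, adjusted p = 0.00584). In each case EAM replicate 3 was the lowest and replicate 4 the highest EAM heart, and none overlapped with the controls, as was so for 36.5% of all genes tested at D21. Of the D21 EAM hearts replicate 3 also had the lowest summed leucocyte markers (941 CPM) and the highest summed cardiomyocyte markers (29792 CPM). Col5a2 was at 395, 229, 134 and 504 CPM in the EAM hearts and 90.6, 68.1, 86.4 and 92.2 CPM in the controls (log2 fold change 1.94, SE 0.38, adjusted p = 0.00985), and Col11a1 at 19.6, 5.01, 3.07 and 18.6 and 0.712, 0.384, 0.875 and 0.768 CPM (log2 fold change 4.10, SE 0.68, adjusted p = 0.00669). Col14a1 was at 159, 95.0, 90.8 and 112 CPM in the EAM hearts and 66.6, 50.1, 52.2 and 58.6 CPM in the controls (log2 fold change 1.03, SE 0.19, adjusted p = 0.00876) and Col16a1 at 80.3, 48.1, 33.4 and 72.8 and 21.0, 16.4, 20.1 and 20.3 CPM (log2 fold change 1.62, SE 0.27, adjusted p = 0.00669). With libraries scaled by total counts, Col5a2 and Col14a1 were not called (adjusted p = 0.0106 and 0.0101 by edgeR). The D21 calls depended on single libraries. With any 1 of the 4 control hearts, or EAM replicate 1 or 2, left out, 0 collagens were called by edgeR. At most 8 genes of the whole table were then called higher and at most 32 lower. Without EAM replicate 4, 3 collagens were called higher, beside 298 genes higher and 136 lower in the whole table. Without EAM replicate 3, 10 collagens were called higher and 3 lower, beside 1477 and 529 genes of the whole table. The log2 fold change of Col1a1 ran from 2.78 to 3.45 over these, and that of Col3a1 from 2.33 to 2.83.

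No type IV or type VI collagen was called at D21. Col4a1 had a log2 fold change of 0.03 (SE 0.19, adjusted p = 0.907), Col4a2 of -0.11 (SE 0.18, adjusted p = 0.65), Col6a1 of 0.03 (SE 0.12, adjusted p = 0.887) and Col6a2 of -0.07 (SE 0.10, adjusted p = 0.611). For Col4a1 the EAM hearts were at 932, 933, 938 and 1353 CPM and the controls at 1002, 810.5, 1154 and 1168 CPM. Col4a3 and Col4a4 remained lower in every EAM heart than in every control heart, with 1.21 to 4.41 against 6.38 to 10.3 CPM and 2.98 to 11.8 against 14.0 to 21.0 CPM, but were not called, with log2 fold changes of -1.67 (adjusted p = 0.0133) and -1.46 (adjusted p = 0.0261). They were called in the fit of all 24 hearts (adjusted p = 9.7e-04 and 0.00222), as were Col5a1 and Col12a1 on the higher side, at 1.78 (adjusted p = 3.2e-04) and 2.63 (adjusted p = 0.0013), and Col13a1 on the lower side, at -1.27 (adjusted p = 0.00553). Col12a1 was at 21.0, 12.3, 3.01 and 60.5 CPM in the EAM hearts and 3.48 to 4.29 CPM in the controls. Its EAM replicate 3 lay below every control heart. Col24a1, too low to be tested at D21 alone, had 33, 14, 5 and 51 reads in EAM and 1, 2, 0 and 2 reads in control hearts. It was also called higher in the fit of all 24 hearts. It entered that fit only through the EAM hearts of D15 and D21, so this call is no support for the group. Beside these values, 5 of 5 leucocyte markers tested were called higher at D21, 3 of 6 activated fibroblast markers higher, and 3 of 5 cartilage and valve markers lower, with a summed level of 9.82 to 17.2 CPM in EAM against 31.8 to 35.8 CPM in the controls. Of the adipocyte and the Schwann cell markers 1 each was called lower, of 5 and 6 tested. The summed level of the pericyte and smooth muscle markers was 604 to 1253 against 1734 to 1822 CPM and that of the general fibroblast markers 1873 to 2855 against 3076 to 3864 CPM, and that of the endothelial markers 745 to 1204 against 1206 to 1444 CPM, without overlap and with 0 of 6 called in each list. Of the fibroblast markers Gsn had a mean of 889 CPM in the EAM hearts and 2009 CPM in the controls. Dcn and Lum had higher means in the EAM hearts, and Pdgfra, Tcf21 and Dpt lower ones. The summed level of the cardiomyocyte markers was 12462 to 29792 against 25529 to 27434 CPM and that of the adipocyte markers 253 to 521 against 374 to 441 CPM. The adipocyte sum was mostly Fabp4, with a mean of 391 CPM in the EAM hearts and 400 CPM in the controls. The adipocyte list had a median log2 fold change of -3.65, with Plin1 at a mean of 0.180 against 4.70 CPM. The part of all these cells in the collagen values was not tested.

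The time course was tested as a change of the EAM effect between days in a fit of all 24 hearts. From D10 to D15 the effect rose for 13 of the 38 genes and fell for 2, where 5.38% of 16318 genes rose and 7.35% fell. The 13 were 7 fibrillar genes (Col1a1, Col1a2, Col3a1, Col5a1, Col5a2, Col11a1 and Col24a1) and Col6a3, Col8a1, Col12a1, Col14a1, Col16a1 and Col18a1. Col24a1 had 0 to 4 reads in every D10 heart and every control heart and entered this fit only through the EAM hearts of D15 and D21, so its call is no support for the group. It was not called without any 1 of D10 control replicates 1, 3 and 4, D10 EAM replicates 3 and 4, D15 control replicates 1, 2 and 4 or D15 EAM replicates 2 and 4, and Col6a3 not without D10 control replicate 2. With limma-voom Col11a1, Col12a1 and Col24a1 were not called. The change was 3.76 (SE 0.54, adjusted p = 0.00107) for Col1a1, 2.63 (SE 0.50, adjusted p = 0.00184) for Col3a1 and 3.94 (SE 0.86, adjusted p = 0.00235) for Col12a1 on the log2 scale. The effect fell for Col4a3 by 1.78 (SE 0.51, adjusted p = 0.00851) and for Col13a1 by 1.85 (SE 0.49, adjusted p = 0.00559). Without D10 EAM replicate 1, 13 rose and 3 fell, Col4a4 the third. The calls of Col4a3 and Col13a1 rest on single libraries, since 0 fell with any 1 of 9 hearts left out, namely D10 control replicates 2, 3 and 4, D10 EAM replicates 2 and 4, D15 control replicate 1 and D15 EAM replicates 1, 2 and 4. The medians were 2.70 over fibrillar, 0.05 over type IV and 0.76 over the other genes, beside -0.03 over all genes.

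From D15 to D21 the effect was called changed for 0 collagens by edgeR's quasi-likelihood test, beside 3.66% of all genes. At an unadjusted p under 0.05, 1 was higher and 11 were lower, where 23.4% of all genes were higher and 17.3% lower, and DESeq2, the edgeR likelihood ratio test and limma-voom called 1, 1 and 0, the 1 being Col6a3. The fitted change was below 0 for 9 of 10 fibrillar genes, with a median of -0.93, and for Col1a1 it was -1.25 (SE 0.52, adjusted p = 0.0789). Col18a1 had an FDR under 0.01 with a change of -0.96 (SE 0.24, adjusted p = 0.00785), short of 2-fold. From D10 to D21 again 0 were called, beside 0.809% of all genes. At an unadjusted p under 0.05, 11 were higher and 3 lower, where 8.52% and 9.52% of all genes were, DESeq2 and the edgeR likelihood ratio test called 6 each (Col1a1, Col1a2, Col3a1, Col5a2, Col11a1 and Col16a1, all higher) and limma-voom 0, and the quasi-likelihood test called Col1a1 and Col1a2 without D10 EAM replicate 1 and 5 without D21 EAM replicate 3. For Col1a1 that change was 2.51 (SE 0.53, adjusted p = 0.0114) and for Col1a2 2.31 (SE 0.49, adjusted p = 0.0115). The comparisons between days share hearts with each other and with the tests within each day. The shares of all genes between days are those of the quasi-likelihood test.

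**Figure D5:**
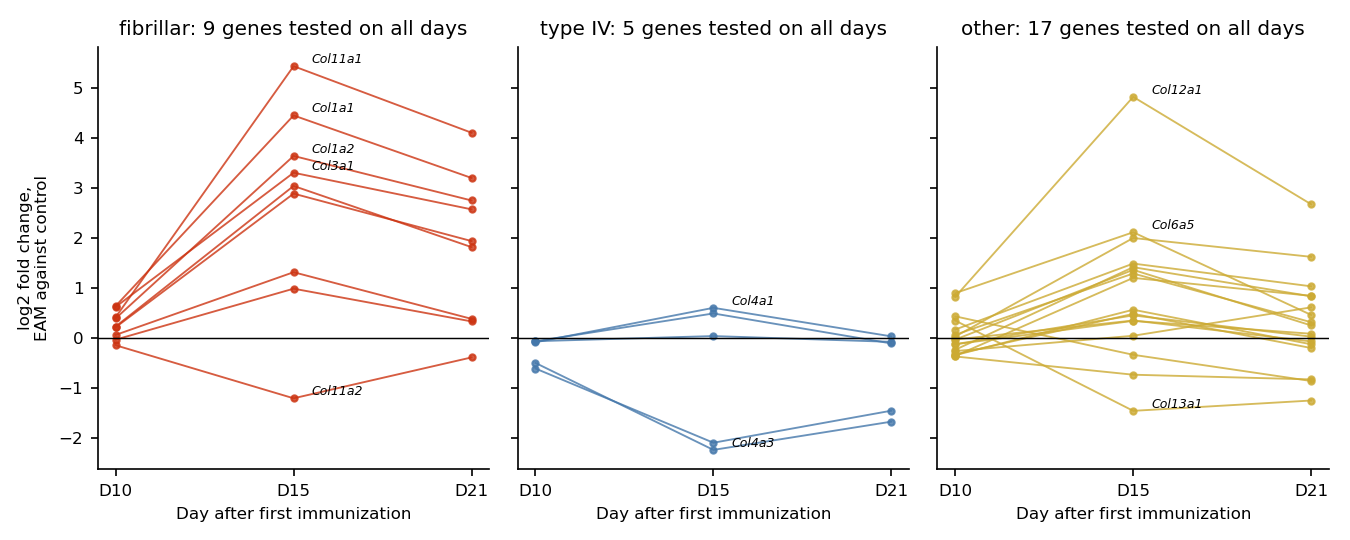
Log2 fold change of EAM against control hearts at D10, D15 and D21, 1 line for each collagen gene tested on all days, in panels for fibrillar, type IV and other genes, with some genes named. All but 1 of the 9 fibrillar lines are highest at D15 and lower at D21, and the Col4a3 and Col4a4 lines are lowest at D15.

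Control hearts were compared with each other to see how far collagens drifted without the peptide. From D10 to D15, D15 to D21 and D10 to D21, 0 of 38 genes were called by edgeR, beside 0.0919%, 0% and 0.214% of all genes, and DESeq2, the edgeR likelihood ratio test and limma-voom also called 0. At an unadjusted p under 0.05 there were 2, 3 and 9 genes of 38, where 6.69%, 2.37% and 12.2% of all genes were. The 9 included Col4a3, at 2.70 to 5.17 CPM in D10 and 6.38 to 10.3 CPM in D21 controls (log2 fold change 1.07, adjusted p = 0.158), Col4a4 (log2 fold change 0.87, adjusted p = 0.264), Col13a1 (log2 fold change 1.05, adjusted p = 0.155) and Col23a1 (log2 fold change 0.90, adjusted p = 0.112), all higher at D21. Col4a3 and Col4a4, called lower in EAM hearts at D15, had their lowest control means at D10. Col1a1 and Col3a1 had control means of 245 ± 73.1, 186 ± 29.7 and 254 ± 34.0 CPM and of 865 ± 371, 604 ± 129 and 754 ± 119 CPM at D10, D15 and D21 (SD, n = 4 each).

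Enzymes and chaperones that fold, trim and crosslink collagen changed in the same D15 hearts. Of 34 such genes 33 were tested, 17 rose and 1 fell, where 18.1% of all genes tested rose and 12.9% fell, with a median log2 fold change of 1.24. Lox, the lysyl oxidase that crosslinks fibrils, was at 647 ± 241 CPM in the EAM hearts and 11.4 ± 2.05 CPM in the controls (SD, n = 4 each), giving a log2 fold change of 5.86 (SE 0.32, adjusted p = 4.2e-07). P4ha3, a subunit of the prolyl hydroxylase that stabilizes the helix, had 4.47 (SE 0.49, adjusted p = 3.5e-05), and the lysyl oxidase relatives Loxl3 and Loxl4 2.83 (adjusted p = 1.4e-06) and 2.48 (adjusted p = 1.9e-06). Colgalt2, which adds galactose to collagen lysines, fell, with -1.92 (adjusted p = 9.4e-06). At D21, 3 of 33 rose and 0 fell, where 4.13% of all genes rose and 1.16% fell. They were Lox (log2 fold change 4.50, adjusted p = 0.00682), P4ha3 (log2 fold change 3.76, adjusted p = 0.00581) and Adamts2, which removes the propeptide at the front end of procollagen (log2 fold change 1.01, adjusted p = 0.00844). With any 1 of the control hearts or EAM replicate 1 or 2 left out, 0 rose. Without EAM replicate 3, 11 rose, beside 1477 genes of the whole table. With all D21 hearts 2 of the 33 were lower at an unadjusted p under 0.05, where 21.2% of all genes were. At D10, 0 of 33 were called by edgeR and 6 were higher and 1 lower at an unadjusted p under 0.05, where 9.71% and 5.54% of all genes were. Without D10 EAM replicate 1, 5 were higher and 1 lower, where 6.12% and 4.96% of all genes were.

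Of 10 collagen receptors, 9 were tested at D15 and 3 rose, where 18.1% of all genes tested rose. Lair1, an inhibitory receptor of leucocytes for collagen, was at 60.5 ± 13.2 CPM in the EAM hearts and 4.63 ± 0.428 CPM in the controls (SD, n = 4 each), giving a log2 fold change of 3.75 (SE 0.17, adjusted p = 1.3e-07). Itga2, an integrin chain for fibrillar collagen, had 1.81 (adjusted p = 0.00134), and Mrc2, the endocytic receptor that clears collagen fragments, 1.53 (adjusted p = 1.0e-04). The discoidin domain receptors Ddr1 and Ddr2, which were not called, had log2 fold changes of 0.07 (adjusted p = 0.347) and 0.01 (adjusted p = 0.929). The receptors had a median of 0.44 at D15. At D10 and D21, 0 of 10 and 0 of 9 were called by edgeR, and 2 and 4 differed at an unadjusted p under 0.05, where 15.3% and 46.4% of all genes did. At D10 it was 1 receptor without D10 EAM replicate 1, where 11.1% of all genes differed.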

How the data were processed

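The deposited values are whole read counts per gene. Per the study's methods and the submitters' processing notes, the authors aligned paired-end 75 bp reads of a directional library kit to GRCm38 with HISAT2 2.0.4, removed duplicates with Picard and counted reads per gene with featureCounts. Removing duplicates can lower the counts of abundant genes more than those of rare ones.

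Here counts were tested with the quasi-likelihood test of edgeR 4.0.16 (TMM scaling, 10 reads or more in 4 or more samples, Benjamini-Hochberg adjustment, FDR under 0.01 and at least 2-fold), within each day and, for changes between days, in 1 fit of all 24 hearts. The scripts were tested on simulated counts. CPM used the TMM factors of the fit of 24. RPKM used the exons of each gene in a GENCODE annotation of GRCm38, another than the Ensembl one the study counted with. Ratios of reads had a pseudocount of 0.5. DESeq2 1.42.0, limma-voom (limma 3.58.1), the edgeR likelihood ratio test, other scalings, no filter, a replicate block, all 12 control hearts and single hearts left out were alternatives. The newer form of the quasi-likelihood test was added after seeing the data.

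Values by heart are given for the 3 members of each group (fibrillar, type IV, other) with the highest control RPKM and for the called members with the 5 largest fold changes in each direction at D15 and D21. Others are given by range, count or fold change. Of the enzyme and receptor lists up to 4 called genes in each direction are named, plus Ddr1 and Ddr2 and the marker genes, which were chosen after their values were seen. The members and lists were chosen with earlier results of these data known.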

Additional observations from a re-analysis of the deposited data

Results flagged for a closer look

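In 11 of 168 groups of 4 hearts, 1 value lay further from the others than Dixon's critical value for 4 samples allows, and chance alone flags about 1 group in 20. In D15 EAM replicate 3, Col3a1 (3709 CPM) and the log2 ratio Col1a1/Col4a1 (0.73) were below the other D15 EAM hearts. In D21 EAM replicate 4, Col4a1 (1353 CPM), Col4a5 (89.3 CPM), Col15a1 (245 CPM) and Col6a3 (129 CPM) were above the other D21 EAM hearts. In D21 EAM replicate 3, Col11a2 was higher, at 8.35 CPM. In D10 EAM replicate 1, Col4a2 (515 CPM) and Col14a1 (33.1 CPM) were lower and Col12a1 (7.95 CPM) was higher than in the other D10 EAM hearts. In D21 control replicate 2, Col4a4 was lower, at 14.0 CPM.

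The EAM effect differed between D10 and D15 for 15 collagens by the interaction term of the fit of all 24 hearts. On the log2 scale it rose by 3.76 for Col1a1, 3.20 for Col1a2, 2.63 for Col3a1, 2.76 for Col5a1, 2.62 for Col5a2, 4.97 for Col11a1 and 5.57 for Col24a1 among the fibrillar genes, where the value of Col24a1 is a fitted ratio over at most 4 reads a heart at D10 and in the controls and is not precise. It rose by 3.94 for Col12a1, 1.92 for Col16a1, 1.27 for Col14a1, 1.51 for Col8a1, 1.34 for Col6a3 and 1.17 for Col18a1 among the others. The change was -1.78 for Col4a3 and -1.85 for Col13a1.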

How the results depend on the processing

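Of the effects of single members within a day, 1693 of the values under an alternative stayed on their side of the threshold, and 63 lost and 46 gained the call. No effect that was called turned its direction, while 50 of the 1693, from 27 effects that were not called (adjusted p of at least 0.328 by edgeR, log2 fold change of at most 0.46 in size) had the other sign, among them Col26a1 and Col8a2 at D15 and Col4a1 and Col6a5 at D21. With 1 heart left out, 14 to 16 collagens rose and 3 to 4 fell at D15, 0 to 10 rose and 0 to 3 fell at D21, and 0 were called at D10. The EAM effect changed from D10 to D15 for 12 to 15 (higher) and 0 to 3 (lower), from D15 to D21 for 0 to 3 and from D10 to D21 for 0 to 5. At D21 limma-voom called 3 higher, and 3 were lower with DESeq2, the edgeR likelihood ratio test and the fit of 24. With all 12 control hearts 1 was lower at D10 (Col4a4), 5 at D15 and 2 at D21. From D10 to D15 the effect fell for 0 genes with limma-voom and 1 each with total counts and no filter, from D10 to D21 it changed for 6 with DESeq2 and 6 with the likelihood ratio test, and from D15 to D21 for 1 each with DESeq2, the likelihood ratio test, total counts and no fold limit. The cause was not tested.

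Same-numbered EAM and control hearts deviated together with correlations of -0.083 to 0.368 at D10, -0.096 to 0.035 at D15 and 0.097 to 0.303 at D21, and 4, 0 and 7 of 8 hearts correlated best with their own number, and the numbers were not taken as pairs, since on no day were all 4 correlations over 0.1 (3 of 4 at D21, the fourth 0.097). With a replicate block, 0 collagens were called at D10. At D15 14 rose and 3 fell with the block, without Col5a3 and Col9a3 (adjusted p = 0.0115 and 0.0105 by edgeR). At D21 5 rose with it, without Col5a2 (adjusted p = 0.0142 by edgeR) and Col14a1 (under 2-fold). At D21 most hearts matched their own number best, as a hint from the data, not the design. As pairs, the log2 ratios that had passed could not, since 4 pairs allow no p below 0.125. Their values stayed 0.23, 0.80 and 0.43 for Col1a1/Col1a2 at D10, D15 and D21, 1.05 and 0.58 for Col1a1/Col3a1 at D15 and D21, 0.12 for Col4a1/Col4a2 at D15, and 3.73 and 2.97 for Col1a1/Col4a1 at D15 and D21. With all 12 control hearts Col4a1/Col4a2 at D21 (0.14) and Col1a1/Col4a1 at D10 (0.86) passed. With 1 heart left out, Col1a1/Col1a2 at D10 was 0.195 to 0.271, Col1a1/Col3a1 0.934 to 1.22 at D15 and 0.477 to 0.679 at D21, and Col4a1/Col4a2 0.101 to 0.143 at D15 and 0.109 to 0.192 at D21. The first 4 of these ended their call without any 1 heart of 1 group (adjusted p of 0.0686 to 0.0762, exact permutation test), the controls for the type I and III ratios and the EAM hearts for type IV, and Col4a1/Col4a2 at D21 passed without EAM replicate 3 (adjusted p = 0.0381, exact permutation test). Depth limits Col9a2, Col9a3, Col17a1, Col24a1 and Col25a1, which had few reads in most hearts.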
